A study of Mus musculus with 6 samples.

Results

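The insulin-like growth factor (IGF) family was followed here by 10 genes, namely the ligands Igf1 and Igf2, the receptors Igf1r and Igf2r, and the binding proteins Igfbp2, Igfbp3, Igfbp4, Igfbp5, Igfbp6 and Igfbp7. A probe set, the group of oligonucleotides that measures a transcript on an Affymetrix array, was taken as a member where the platform annotation gave it exactly 1 of these symbols. This held for 23 of 22626 probe sets, and each of the 10 genes, of 12393 named in all, had at least 1. Total RNA came from the cochlea, the coiled part of the inner ear that senses sound. The mice were males of DBA/2J, an inbred strain whose hearing fails early. There were 3 samples aged 36 weeks and 3 aged 7 weeks, all of the same strain, sex and diet, with no treatment named, each on its own single-colour array. The comparison addressed age-related hearing loss by setting the older cochleae against the younger ones. The labels do not say whether a sample was 1 animal or a pool, so the p-values measure the spread between these samples, which may be technical.

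IGF1 and IGF2 are secreted peptides that signal growth, survival and metabolism through the IGF1 receptor, a tyrosine kinase that feeds the PI3K and AKT pathway and the RAS and ERK pathway. The IGF2 receptor, which also carries mannose 6-phosphate tagged enzymes to lysosomes, binds IGF2 and removes it without passing on a growth signal. The binding proteins hold the ligands in tissue fluid and matrix, extend their lifetime and control their access to the receptor. In the inner ear IGF1 is known for its part in the maturation and upkeep of the cochlea, and its loss causes deafness in mice and people.

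At 36 weeks the ligands and most binding proteins were lower and the IGF1 receptor was higher. The mean signal of Igf1 at 36 weeks was 22.1% of that at 7 weeks, and those of Igfbp6, Igfbp5, Igfbp2 and Igf2 were 38.6%, 44.3%, 45.3% and 49.8%. Igfbp7 stood at 64.6% and Igfbp4 at 80.3%. Igf1r stood at 161.5%, Igf2r at 121.0% without passing the test, and Igfbp3 was too dim to be tested. These are the values of the brightest probe set of each gene. Signals are linear, in arbitrary units, and were scaled by the authors to about the same trimmed mean on every array, so each is a relative value. Ages are compared within a probe set, since signals of different probe sets are not on a common scale. Brightness served to choose and order probe sets, and a summed signal weighs most the probe sets with the highest signals.

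**Figure D1:**
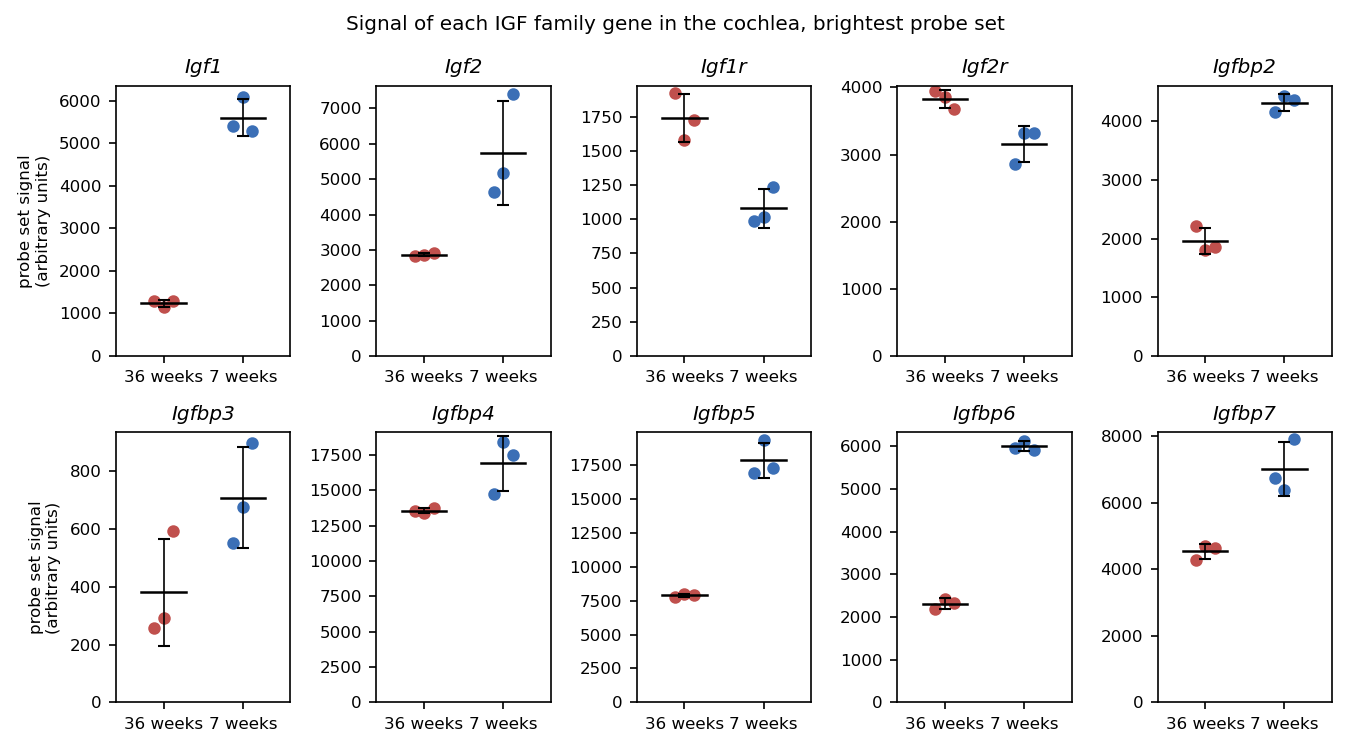
Probe set signal in arbitrary units (linear vertical axes from 0, a separate scale for each gene) of the brightest probe set of the 10 genes. Points are arrays, with 36 weeks on the left and 7 weeks on the right, horizontal lines are means and error bars are SD (n = 3 each). The 3 arrays of each age do not overlap for any gene except Igfbp3.

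The whole tables set the background. Of 13575 probe sets tested with limma and Benjamini-Hochberg adjustment, 16.7% were higher at 36 weeks and 17.7% were lower, 34.4% in all. After centring on the array medians, which shifted the median difference of all tested probe sets by -0.10 on the log2 scale, the higher calls were 36% of all calls, against 48.6% with the values as deposited. The tested member genes kept their direction under both. Coch and Otos, defining genes of the cochlear spiral ligament, were bright on arrays of both ages, with mean signals of 21556 and 13801 at 36 weeks and 82144 and 73912 at 7 weeks. Markers of other tissues were also present and differed with age. The summed signal of 8 granulocyte genes ran between 661787 and 705544 at 36 weeks, against 46360 to 52046 at 7 weeks. That of 7 anterior pituitary genes, of which Gh was the brightest, ran between 76839 and 82257 at 36 weeks, against 6237 to 7169 at 7 weeks. That of 6 brain genes, among them Aldoc and Cbln1, ran between 61873 and 65302 at 36 weeks, against 17563 to 17913 at 7 weeks. No marker was listed at 0. In bulk tissue, fewer cells of a type and less RNA per cell cannot be told apart, which holds for every value below.

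Of the 23 member probe sets 17 passed the filter on dim signals, a mean over the 6 arrays above 593.6. All 17 were above that level at both ages, with 992.8 the lowest mean at either age. Of these, 11 were lower (64.7%, against 17.7% of all tested probe sets) and 1 was higher (5.88%, against 16.7%). The median log2 difference, always 36 weeks minus 7 weeks, was -0.62 over the 17 member probe sets and 0.02 over all tested probe sets. The 3 arrays of each age lay wholly apart for 12 members in the lower direction, against 24.1% of all tested probe sets, and for 2 in the higher direction, against 23.7%. Together these were 82.4% of the member probe sets, against 47.8% of all tested. Probe sets of the same gene share a transcript, and 5 of the 17 belong to Igfbp4. Counted by gene, 9 of the 10 brightest probe sets were tested, of which 7 were lower and 1 was higher.

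**Figure D2:**
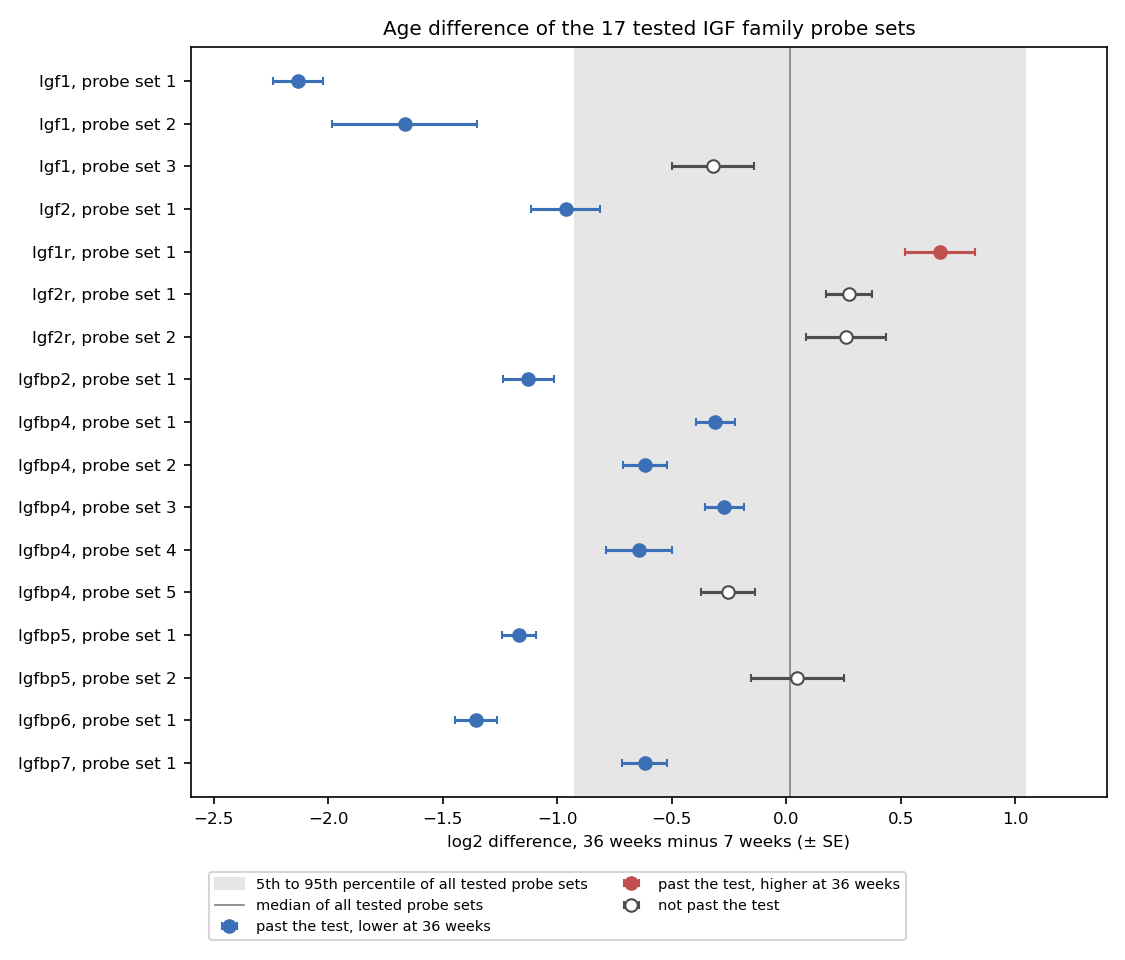
Log2 difference, 36 weeks minus 7 weeks, of the 17 tested member probe sets with its SE (horizontal axis), numbered from the brightest of each gene. Filled points passed the test and open points did not. The grey band runs from -0.92 to 1.04, the 5th to 95th percentile of all tested probe sets. The first probe sets of Igf1, Igf2, Igfbp2, Igfbp5 and Igfbp6 and the second of Igf1 lie below the band, and that of Igf1r is the sole filled point right of 0.

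Igf1 encodes the main circulating and local growth factor of the family. Its brightest probe set had signals of 1288.4, 1142.7 and 1287.1 at 36 weeks, against 5411.0, 6101.6 and 5298.0 at 7 weeks. The ages were far apart, the highest older array lying below every younger one by more than the whole spread within either age. The means were 1239 ± 83.7 at 36 weeks and 5604 ± 435 at 7 weeks (SD, n = 3 each), a log2 difference of -2.13 ± 0.11 (SE; limma adjusted p = 2.32e-07). Of the 13575 tested probe sets 49 had a lower log2 difference.

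The other probe sets of Igf1 gave smaller differences. The second had signals of 1331.3, 1144.6 and 502.4 at 36 weeks, against 4124.7, 2911.3 and 2308.9 at 7 weeks, a log2 difference of -1.67 ± 0.32 (adjusted p = 0.00238). Its ages also lay apart, with a wider spread inside each. The third had 966.6, 962.9 and 1298.3 at 36 weeks, against 1580.5, 1187.7 and 1288.9 at 7 weeks. The ages overlapped there, and the log2 difference of -0.32 ± 0.18 did not pass (adjusted p = 0.198). Igf1 is transcribed into several messages with different ends, and the files do not say which of them each probe set detects.

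Igf2 encodes the fetal-type ligand, which in mice is expressed from the paternal copy in most tissues. Its signals were 2820.4, 2851.9 and 2901.3 at 36 weeks, against 4630.0, 5175.1 and 7406.3 at 7 weeks. The older arrays agreed closely and the younger ones were all higher but spread widely, with 1 array well above the other 2. The means were 2858 ± 40.8 at 36 weeks and 5737 ± 1471 at 7 weeks (SD, n = 3 each), with a log2 difference of -0.96 ± 0.15 (adjusted p = 0.000712). A second Igf2 probe set was dim and not tested, with a mean of 286.8 at 36 weeks and 287.3 at 7 weeks.

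The receptors did not follow the ligands. Igf1r, the signalling receptor, had signals of 1926.4, 1577.9 and 1724.1 at 36 weeks, against 984.2, 1014.3 and 1239.5 at 7 weeks. Every older array was above every younger one. The means were 1743 ± 175 at 36 weeks and 1079 ± 140 at 7 weeks (SD, n = 3 each), and the log2 difference was 0.67 ± 0.15 (adjusted p = 0.00666). Its second probe set was dim, between 45.3 and 695.3 at 36 weeks and between 100.9 and 313.0 at 7 weeks, and was not tested.

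Igf2r, the clearance receptor, had 3945.3, 3861.0 and 3672.7 at 36 weeks, against 2852.1, 3314.4 and 3322.3 at 7 weeks. The ages did not overlap, but the log2 difference of 0.27 ± 0.10 lay just outside the threshold of 0.05 (adjusted p = 0.0588). With quantile normalization the difference was 0.30 and passed, with an adjusted p of 0.0399. After centring on the array medians it was 0.17 and did not pass (limma adjusted p = 0.240). It passed in 2 of 15 refits. The second Igf2r probe set overlapped between the ages, with a log2 difference of 0.26 ± 0.17 (adjusted p = 0.281).

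Among the binding proteins, Igfbp6, which prefers IGF2 over IGF1, had the largest fall. Its signals were 2190.8, 2427.8 and 2329.1 at 36 weeks, against 5967.8, 6125.9 and 5902.2 at 7 weeks. Both ages were tight and far apart, with a coefficient of variation of 5.14% at 36 weeks and 1.92% at 7 weeks. The log2 difference was -1.36 ± 0.09 (adjusted p = 1.67e-06), and 254 of all tested probe sets had a lower one.

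Igfbp5, a matrix-bound binding protein made by bone, muscle and connective tissue cells, had 7777.2, 7998.2 and 7909.8 at 36 weeks, against 16928.1, 19302.7 and 17270.6 at 7 weeks. The older arrays differed from each other by little and all lay below the younger ones, with a log2 difference of -1.17 ± 0.07 (adjusted p = 1.03e-06). By its name, this probe set may also detect transcripts of similar sequence. The second probe set of Igfbp5 had 1020.5, 947.4 and 1174.2 at 36 weeks, against 1227.9, 763.0 and 1087.9 at 7 weeks. Its ages overlapped, with a log2 difference of 0.05 ± 0.20 (adjusted p = 0.88), so the fall of Igfbp5 rests on the first probe set.

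Igfbp2, which binds both ligands and is made by brain coverings and many embryonic tissues, had 2211.7, 1802.5 and 1860.4 at 36 weeks, against 4158.6, 4440.6 and 4363.3 at 7 weeks. The older arrays lay below the younger ones by more than the spread within either age. The log2 difference was -1.13 ± 0.11 (adjusted p = 2.76e-05). In the RefSeq gene table Igfbp2 and Igfbp5 are neighbours on chromosome 1 with 0 annotated genes between them.

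Igfbp7, a binding protein of vessel walls with weak affinity for the IGFs, had 4282.6, 4696.8 and 4624.6 at 36 weeks, against 6746.6, 6379.8 and 7921.5 at 7 weeks. The ages lay apart, with a log2 difference of -0.62 ± 0.10 (adjusted p = 0.000791). The other 2 Igfbp7 probe sets were dim, with no array above 356.0 at 36 weeks or above 299.2 at 7 weeks, and were not tested.

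Igfbp4, which holds back IGF action until the protease PAPP-A cleaves it, was measured by 6 probe sets. The brightest had 13551.2, 13414.7 and 13723.9 at 36 weeks, against 14752.4, 18439.0 and 17509.0 at 7 weeks. The ages lay apart by a narrow margin, since 1 younger array was close to the older ones. The log2 difference was -0.31 ± 0.09 (adjusted p = 0.0176). This call was lost with quantile normalization (-0.16, adjusted p = 0.124), without the intensity trend in the variance model (adjusted p = 0.0902), and without array 2 of 36 weeks (0.0539), array 2 of 7 weeks (0.0683) or array 3 of 7 weeks (0.0544). The other 4 tested probe sets had log2 differences of -0.62, -0.27, -0.64 and -0.26, of which the first 3 passed. By their names, those 3 may also detect transcripts of similar sequence. The last did not pass (limma adjusted p = 0.122). All 5 tested probe sets had ages apart in the lower direction. The sixth was dim and not tested.

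Igfbp3, the main carrier of IGF1 in blood, was the member below the filter at its only probe set. Its signals were 257.9, 291.4 and 593.5 at 36 weeks, against 553.1, 675.5 and 899.8 at 7 weeks. The ages overlapped by 1 array on each side. When all 22626 probe sets were tested without a filter, its log2 difference was -0.87 ± 0.36 (adjusted p = 0.132). A difference in Igfbp3 was not detectable at this signal.

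**Figure D3:**
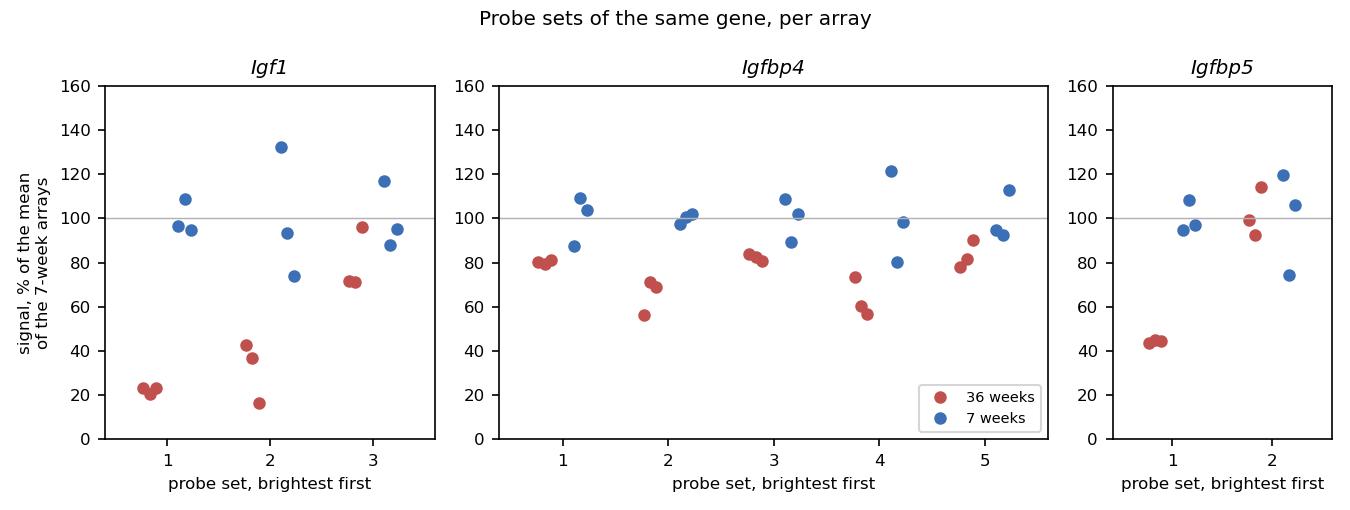
Signal of each array as a percentage of the mean of the 7-week arrays of the same probe set (vertical axis) for the tested probe sets of Igf1, Igfbp4 and Igfbp5, brightest first. Red points are 36 weeks, on the left of each pair, and blue points are 7 weeks. The mean of the 36-week arrays was 22.1%, 31.9% and 79.6% for the 3 probe sets of Igf1 and 44.3% and 102.1% for the 2 of Igfbp5, while the 5 of Igfbp4 lay between 63.3% and 83.3%.

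The promoter sequences of 5 members are shown. They are the ligand with the largest fall, the neighbouring pair Igfbp2 and Igfbp5, the receptor that rose and Igfbp4, the member with TATAAA 28 bases before its start. Each is the 200 bases that end 1 base before the annotated start, written 5′ to 3′ on the strand of the gene, from RefSeq with build GRCm38.p6. Capitals mark exact matches on either strand to the TATA-type motifs TATAAA and TATTTAA and to the GC box GGGCGG. Other TATA-like sequences were not sought. The first 2 motifs can overlap each other. For Igfbp2 the upstream of 2 annotated starts is shown.
Igf1 (chr10:87860911-87861110, plus strand): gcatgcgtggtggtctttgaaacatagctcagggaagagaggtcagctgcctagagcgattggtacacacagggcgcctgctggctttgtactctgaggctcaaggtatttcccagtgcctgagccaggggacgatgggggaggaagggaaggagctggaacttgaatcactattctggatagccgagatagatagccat
Igf1r (chr7:67952057-67952256, plus strand): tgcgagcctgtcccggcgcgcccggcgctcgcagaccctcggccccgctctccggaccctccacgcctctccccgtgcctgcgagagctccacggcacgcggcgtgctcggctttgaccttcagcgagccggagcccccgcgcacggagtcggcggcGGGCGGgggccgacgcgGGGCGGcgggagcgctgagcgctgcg
Igfbp2 (chr1:72824280-72824479, plus strand): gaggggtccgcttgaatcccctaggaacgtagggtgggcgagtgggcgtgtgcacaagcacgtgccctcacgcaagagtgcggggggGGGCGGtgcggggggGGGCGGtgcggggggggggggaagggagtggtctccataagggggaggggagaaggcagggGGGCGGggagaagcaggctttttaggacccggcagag
Igfbp4 (chr11:99041044-99041243, plus strand): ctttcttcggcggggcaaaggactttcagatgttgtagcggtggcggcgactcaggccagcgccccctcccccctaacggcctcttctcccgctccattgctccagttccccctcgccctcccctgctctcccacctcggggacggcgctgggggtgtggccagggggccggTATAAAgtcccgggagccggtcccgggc
Igfbp5 (chr1:72874866-72875065, minus strand): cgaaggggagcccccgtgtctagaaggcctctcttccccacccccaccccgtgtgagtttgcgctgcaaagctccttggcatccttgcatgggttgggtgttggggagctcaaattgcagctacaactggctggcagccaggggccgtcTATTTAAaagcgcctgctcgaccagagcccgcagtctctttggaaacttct
All 10 genes had an entry in this table, with 14 windows in all because Igf2 had 4 starts and Igfbp2 had 2. TATAAA was in 2 of the 14 windows, those of Igfbp4 and Igfbp6, against 9.96% of 32851 mouse promoter windows of the same length. In Igfbp4 it began 28 bases before the start. In Igfbp6 it was on the opposite strand, 148 bases before the start. TATTTAA was in 1, that of Igfbp5, against 3.22%. GGGCGG was in 6 of 14, among them Igf1r with 2 sites and Igfbp7 with 4, against 31% of all windows. The Igf1 window had no match to any of the 3. It lies inside the annotated Igf1 gene, which begins at base 87858265, so a start further upstream was not covered. The windows of Igfbp3 and Igfbp4, the downstream one of Igfbp2 and those of Igf2 except the furthest upstream also lie inside their annotated genes. The members that were lower at 36 weeks therefore had promoter windows of each kind, with a TATA-type motif, with a GC box and with neither.

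Genes that act beside the members were read from lists of the IGF pathway. Of 99 listed genes outside the members 83 were matched to a probe set and 65 were tested, each by its brightest tested probe set. Of these, 21 were lower (32.3%, against 17.6% of 8555 tested genes) and 10 were higher (15.4%, against 17.5%). Their median log2 difference was -0.16, against 0.02 over all tested genes. Stat5a, Stc2 and Ccn4 passed the filter only through their 7-week signals, and of the 62 genes above the filter level at both ages 20 were lower and 10 higher. For a gene that passed only through the age at which it is high, the filter favours a difference but does not fix it. Such genes are therefore named beside each list below, and their lists' counts are given as description.

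The receptor-proximal genes went both ways, with 3 higher and 4 lower of 11 tested and a median log2 difference of 0.16. Grb2, the adaptor that links the receptor to RAS, rose, with a mean signal of 3493 at 36 weeks and 1355 at 7 weeks and a log2 difference of 1.33 ± 0.11 (adjusted p = 1.06e-05). Ptpn1, a phosphatase that switches off insulin and IGF receptors, rose by 0.77 and Shc1, another adaptor, by 0.57. Gab1, a docking protein, fell by 0.98, Grb14, an inhibitor of the insulin receptor, by 1.01, and Ptpn11, the phosphatase SHP2, by 0.60. The fourth that fell was Irs1, the chief docking protein of the pathway, with a log2 difference of -0.69. Insr, the insulin receptor, had 0.54 and did not pass (adjusted p = 0.16), although it did without array 3 of 7 weeks (adjusted p = 0.0446).

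In the PI3K, AKT and mTOR arm 2 genes were higher and 3 lower of 15 tested, with a median log2 difference of -0.10. Akt1, the kinase at its centre, rose by 0.50 ± 0.10, and Pik3r2, a regulatory subunit of PI3K, rose by 0.74 ± 0.26 with overlapping ages (adjusted p = 0.0479). Pik3r2 lost its call in 9 of 15 refits, with adjusted p of 0.0707 to 0.136, among them those without any 1 of the 3 arrays of 36 weeks or without array 1 or 3 of 7 weeks. Rheb, the GTPase that activates mTOR, fell by 0.52, Foxo3, a transcription factor that AKT keeps out of the nucleus, by 0.64, and Tsc1, an mTOR inhibitor, by 0.57. In the RAS and ERK arm 4 of 6 tested genes were lower and the other 2 did not pass. Map2k2 and Map2k1, the kinases of ERK, fell by 0.86 and 0.36 and Rps6ka3, a kinase downstream of ERK, by 0.48. The other gene of this arm that fell was Nras, with a log2 difference of -0.66, a call lost without array 1 of 7 weeks (adjusted p = 0.0585).

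The growth hormone arm, which drives Igf1 in liver and other tissues, had 1 gene higher and 2 lower of 8 tested. Among the 8, Stat5a passed the filter only through its 7-week signals. Its log2 difference of -0.17 did not pass the test (limma adjusted p = 0.693). Gh itself, a hormone of the anterior pituitary, had 65637.9, 66577.7 and 60299.9 at 36 weeks, against 3947.2, 3967.2 and 3491.1 at 7 weeks, a log2 difference of 4.06 ± 0.08 (adjusted p = 8.66e-11). The 5 tested pituitary genes, Gh among them, were all higher on these arrays. Of these, Cga passed the filter only through its 36-week signals. Besides Gh, those above the filter level at both ages were Prl, Lhb and Pomc, with log2 differences of 3.70, 0.74 and 0.56. These other pituitary genes were thus higher along with Gh, each by less, and the part of pituitary tissue in the Gh value was not tested. Ghr, the growth hormone receptor, had 1759.1, 2161.6 and 1804.4 at 36 weeks, against 2987.2, 3156.6 and 3006.2 at 7 weeks, and fell by 0.67 ± 0.12 (adjusted p = 0.00142). By its name, the Ghr probe set may also detect transcripts of similar sequence. Socs2, a feedback inhibitor that growth hormone induces, fell by 0.76 ± 0.15 (adjusted p = 0.00246). Cish, another such inhibitor, had a log2 difference of -0.12 and did not pass.

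Proteases and matrix partners of the binding proteins showed 1 gene higher and 1 lower of 9 tested. Among the 9, Stc2 passed the filter only through its 7-week signals and was not called with all arrays. Fn1, fibronectin, rose by 0.49 ± 0.08 and Vtn, vitronectin, which binds IGF2 and Igfbp5, fell by 0.75 ± 0.12. Htra1, a secreted protease that cleaves binding proteins, had a log2 difference of -0.02. The count of lower genes was 2 without array 1 of 7 weeks, where Mmp2, a matrix protease, passed (adjusted p = 0.000316), and 2 without array 2 of 7 weeks, where Stc2 passed (adjusted p = 0.0438). Mmp2 had 2864.7, 3296.4 and 2942.7 at 36 weeks, against 2197.7, 5447.9 and 6078.6 at 7 weeks, so that 1 younger array lay below all the others.

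Of 6 tested cysteine-rich proteins related to the binding proteins 5 were called lower. One of them, Ccn4, passed the filter only through its 7-week signals, with a mean of 472.1 at 36 weeks and 1197 at 7 weeks, and of the 5 genes above the filter level at both ages 4 were lower. With the filter at the 60th percentile 3 were lower, since Ccn3 and Ccn4 were no longer tested. Ccn3 had 716.0, 971.4 and 1019.5 at 36 weeks, against 1511.2, 1265.9 and 1319.7 at 7 weeks, and fell by 0.58 ± 0.18 (adjusted p = 0.0297). Its ages lay apart, but its call was lost in 7 of 15 refits, among them those without array 1 of 36 weeks or without any 1 of the 3 arrays of 7 weeks. Ccn2, connective tissue growth factor, had 4064.3, 6278.9 and 4390.0 at 36 weeks, against 14549.2, 15174.0 and 10414.8 at 7 weeks, and fell by 1.44 ± 0.17. Ccn1 fell by 1.66 ± 0.20, at a probe set that may also detect similar transcripts, and Kazald1 by 0.66 ± 0.15. By its name, the probe set of Ccn3 may also detect similar transcripts. The IGF2 mRNA-binding proteins had 2 matched genes and 0 above the filter.

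**Figure D4:**
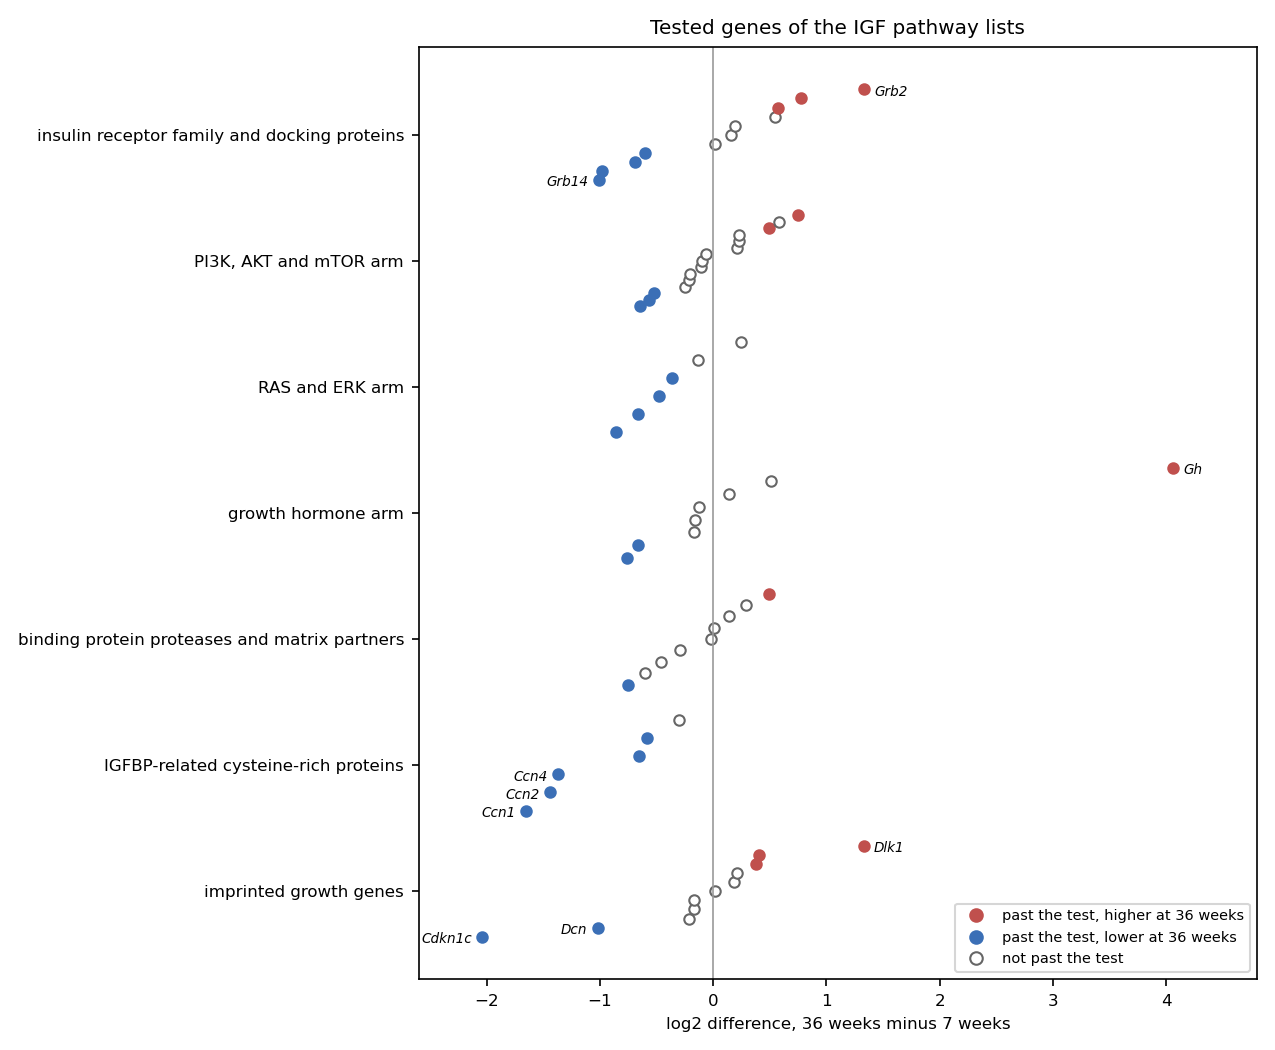
Log2 difference, 36 weeks minus 7 weeks (horizontal axis), of each tested gene in 7 lists of the IGF pathway. Filled red points were higher and filled blue points lower at 36 weeks, open points did not pass the test, and called genes beyond 1 in size are named. Gh lies apart at 4.06, and 5 of the 6 cysteine-rich proteins lie to the left as filled points.

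Of 11 tested imprinted growth genes, the class to which Igf2 belongs, 3 were higher and 2 lower, with a median log2 difference of 0.01. After centring on the array medians 3 were higher and 4 lower, with Gnas and Ndn added to the lower ones (adjusted p = 0.0215 and 0.0299). Dlk1, a membrane regulator of fat and pituitary cells, rose by 1.33 ± 0.14, Meg3, a noncoding RNA of the same locus, by 0.41 ± 0.06, and Peg3 by 0.37 ± 0.09. By their names, the probe sets of Dlk1, Meg3, Gnas and Ndn may also detect transcripts of similar sequence. Cdkn1c, the cell cycle inhibitor p57, had 774.2, 917.2 and 709.3 at 36 weeks, against 3385.3, 4031.4 and 2949.7 at 7 weeks, and fell by 2.04 ± 0.16 (adjusted p = 4.44e-06). Dcn, decorin, which also stands in the fibroblast list, fell by 1.02 ± 0.08.

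Markers of cell types that are known to express these genes moved on the same arrays. Of 9 fibroblast and leptomeningeal genes, among them Ptgds and Col1a2, 8 were lower and 1 higher, with a median log2 difference of -0.62 over the 8 above the filter level at both ages, and their summed signal ran between 128965 and 131544 at 36 weeks, against 213443 to 240783 at 7 weeks. Of 8 spiral ligament fibrocyte genes all 8 were lower, with a median of -1.93 over the 7 above the filter level at both ages and a summed signal of 71994 to 74656 at 36 weeks, against 274125 to 282890 at 7 weeks. Pdgfra in the first list and Tbx18 in the second passed the filter only through their 7-week signals. Both sums were lower on every array of 36 weeks, as were Igf1 and Igf2, and their part in the members' values was not tested.

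Of 9 skeletal muscle genes all 9 were lower, with a median log2 difference of -1.65 and a summed signal of 105157 to 110973 at 36 weeks, against 307552 to 325366 at 7 weeks. Of 6 tested osteoblast and osteocyte genes 4 were called lower, with a summed signal of 4255 to 5139 at 36 weeks, against 9128 to 11655 at 7 weeks. Of those 4, Ibsp, Mepe and Phex passed the filter only through their 7-week signals, with means of 196.0, 286.9 and 307.5 at 36 weeks and 1955, 1669 and 1225 at 7 weeks, which leaves 1 lower of the 3 above the filter level at both ages. Of 7 tested chondrocyte genes 6 were lower and 1 higher (summed signal 8360 to 9278 at 36 weeks, against 22463 to 23340 at 7 weeks), and without Col9a3, which passed only through its 7-week signals, 5 were lower and 1 higher of 6. Of 5 tested smooth muscle and pericyte genes 4 were lower (median -0.77; 16119 to 17538 at 36 weeks, against 25925 to 28952 at 7 weeks). The part of these types in the members' values was not tested.

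Of 8 endothelial genes 1 was higher and 7 did not pass, with a median log2 difference of 0.04 and a summed signal of 10826 to 11368 at 36 weeks, against 10269 to 11115 at 7 weeks. Of 7 tested macrophage genes, a cell type that makes Igf1 in many tissues, 0 passed limma's test and 2, both higher, had an unadjusted p under 0.05, with a median of 0.21 and a summed signal of 19048 to 19615 at 36 weeks, against 16544 to 17558 at 7 weeks. The macrophage sum was higher on every array of 36 weeks than on any of 7 weeks. All 8 granulocyte genes and all 6 brain genes were higher, with medians of 3.81 and 2.02. Of the choroid plexus list, a tissue that makes Igf2, only 2 genes were tested, of which Ttr, transthyretin, fell by 2.00 and Folr1 had -0.11. By its name, the Ttr probe set may also detect similar transcripts. Of 7 tested hair cell genes 4 were lower, and 3 of the 5 above the filter level at both ages, which leaves out Ush1c and Myo7a. The other 2 of that list, Slc26a5 and Pou4f3, were below the filter and not tested. Both were higher on every array of 36 weeks than on any of 7 weeks. Pou4f3 had 681.2, 824.2 and 552.4 at 36 weeks, against 17.3, 231.4 and 281.2 at 7 weeks. Of 6 tested supporting cell and tectorial membrane genes 5 were lower, and 4 of the 5 above the filter level at both ages, which leaves out Tectb.

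The genes most like the ligands over the 6 arrays were found among 8554 other tested genes by Pearson correlation of log2 signals, as a description. For Igf1 they were Mb, the oxygen-binding protein of muscle, with r = 0.9995, Efr3a with 0.9993 and Tfrc, the transferrin receptor, with 0.9991. For Igf2 they were Tob1 with r = 0.9893, Rsad2 with 0.9845 and Plekhf1 with 0.9843. All 6 were lower at 36 weeks. Because the arrays form 2 age groups, a high r mostly says that a gene also differs between the ages, and 686 genes had r above 0.95 with Igf1 and 120 with Igf2. Mb had 8379.7, 7150.9 and 8083.1 at 36 weeks, against 25878.2, 28907.5 and 25997.6 at 7 weeks, so that its lowest older and highest younger array were the same ones as for Igf1. Since Mb was chosen by its correlation with Igf1 over these arrays, this likeness is part of the choice and no further result.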

How the data were processed

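The 6 arrays measured biotin-labelled cRNA made from TRIzol total RNA of cochlea, as the labels' protocols state. Each deposited value is an intensity, the linear signal of a probe set in 1 colour. Which software summarised the probes was not given in the sources used here. The trimmed mean of an array, with the lowest and highest 2% left out, was 1490.2 to 1493.0, so the authors had scaled the arrays. Array medians ran from 766.3 to 859.4, and the number of arrays limits the precision. In the platform annotation 20380 probe sets had 1 symbol and were named, 691 had several and 1555 had none. Of those named, 20351 matched the RefSeq table of GRCm38.p6 by Entrez identifier, and 0 symbols changed.

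Tests were run on log2(signal + 50), a scale on which differences of dim probe sets come out too small. The 13575 probe sets with a mean above the 40th percentile were fitted in R 4.3.3 with limma 3.58.1, by lmFit followed by eBayes with an intensity trend, 36 weeks minus 7 weeks, unpaired and two-sided, with a Benjamini-Hochberg adjusted p under 0.05 as the threshold. With 3 arrays an age, the smallest p of an exact permutation test is 0.1, and none was run. Figures were drawn with matplotlib 3.10.9 in Python 3.11.15.

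The members, gene lists and tests were chosen with earlier results of these data known. All members were named. Of each pathway list the 3 genes with the smallest p per direction were named, of each marker list the 2 brightest at most, and for each ligand the 3 genes with the highest correlation. Irs1, Insr, Nras, Cish, Htra1, Otos, Folr1, Slc26a5, Pou4f3, Lhb and Pomc were added after their values were seen. So were listed genes above the filter level at 1 age only and genes whose call changed between refits. Same-numbered arrays of the 2 ages did not deviate together (correlations of 0.049, -0.010 and -0.002). With 3 arrays an age, such correlations cannot decide whether the numbers pair samples. The alternatives were offsets of 16 and 1, quantile normalization, median centring, no filter and a filter at the 60th percentile, no intensity trend, a replicate block, each array left out, and all 9 pairs at least 1.5-fold apart in place of the model. A filter on the mean of log2 values was added after seeing the data.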

Additional observations from a re-analysis of the deposited data

How the results depend on the processing

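Over 15 refits, no member gene changed direction. Igf1, Igf2, Igf1r, Igfbp2, Igfbp5, Igfbp6 and Igfbp7 passed the test in every refit, with log2 differences of -2.23 to -2.07 for Igf1, -1.10 to -0.77 for Igf2, 0.57 to 0.77 for Igf1r and -1.46 to -1.32 for Igfbp6. Igfbp4 lost its call in 5 of them and Igf2r gained one in 2, with quantile normalization and with the filter at the 60th percentile, where 2 member probe sets were higher in place of 1. In the PI3K, AKT and mTOR list 1 gene was higher in place of 2, the lost one being Pik3r2, with quantile normalization, median centring, no filter or no intensity trend, and without array 2 or 3 of 36 weeks or array 1 or 3 of 7 weeks. Without array 1 of 36 weeks Pik3r2 was also lost but Eif4ebp2 was gained. Counts of lower genes went to 4 in place of 2 for imprinted genes with median centring, to 3 in place of 5 for cysteine-rich proteins with the filter at the 60th percentile, and to 2 in place of 1 for the proteases and matrix partners without array 1 or array 2 of 7 weeks. In the growth hormone arm 2 genes were higher in place of 1 with the replicate block, where Ghrhr passed (adjusted p = 0.0379). The cause was not tested. With each array left out in turn, 9 to 10 member probe sets were lower, against 11 with all arrays, and 1 was higher. In these refits 20 to 21 pathway genes were lower, 9 to 10 were higher, and 3703 to 4092 probe sets passed, against 4665 with all arrays. Where an array was left out, fewer samples were fitted. By the rule that all 9 pairs differ at least 1.5-fold, 6 member probe sets were lower and 0 higher, 8 pathway genes were lower and 3 higher, and 1473 of all tested probe sets passed, since this rule sets a minimum size that the model does not. With the replicate block 11 member probe sets were lower and 1 higher, 20 pathway genes were lower and 11 higher, and 4375 probe sets passed. It changed no call of a member gene. Whether the array numbers pair samples is not known, and not every array correlated best with its own number. Signals near or below the filter level of 593.6, such as those of Igfbp3, limit what can be detected.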

Other observations

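A transcript antisense to Igf2, annotated as Igf2os, was looked at after its values were seen. Its signals were 687.8, 262.2 and 666.2 at 36 weeks, against 851.8, 652.4 and 1075.2 at 7 weeks. The ages overlapped, and the log2 difference of -0.70 ± 0.36 did not pass (limma adjusted p = 0.158).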
